A study of Homo sapiens with 5 samples.

Results

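Lactylation of lysine 12 of histone H4 (H4K12la) was described here in untreated cells of 786-O, an established line from a human kidney cancer. The landscape is the set of peaks found in both control libraries. Peaks of control replicate 1 on chromosomes 1 to 22 were kept where they overlapped a peak of control replicate 2 by 1 bp or more. This left 83846 shared peaks of the 123631 that replicate 1 held on these chromosomes and of the 129848 that the authors deposited for it. The series used CUT&Tag, in which an antibody guides a transposase that cuts and tags DNA around its target. It comprises 5 libraries of 786-O cells, of which the 2 untreated H4K12la libraries are used here. The untreated cells received no agent, and no genetic change beyond those of the line itself is labelled. Both libraries carry 1 batch label, and nothing says that they came from separate cultures, so the spread between them may be technical. With 1 group of 2 libraries there was no contrast and no test.

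Lysine lactylation attaches an acyl group that derives from lactate, the end product of glycolysis, to histone tails. Like acetylation of the same residues, it is studied chiefly as a mark of active promoters and enhancers, and acetyltransferases such as EP300 and the alanyl-tRNA synthetase AARS1 are described as its writers. 786-O cells come from a clear cell renal carcinoma and lack functional VHL, the ubiquitin ligase subunit that removes hypoxia-inducible factors, and such tumours are known for high glycolysis.

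Promoter sequences of 6 genes show the contrast that recurs below, between promoters with and without the mark and with many or few CG dinucleotides. Each line gives the 150 bases before the gene's start, 5′ to 3′ on the gene's strand, from RefSeq (GRCh38.p14), with every CG in capitals. EIF3B encodes a translation initiation subunit and had the highest start peak. PSMB5 encodes a catalytic proteasome subunit, and PAX8 the kidney lineage factor. SOX1, a neural progenitor factor, OR10A2, an olfactory receptor, and IFNA1, a type I interferon, had no start peak in either library.
EIF3B, chr7:2354677-2354826, plus strand: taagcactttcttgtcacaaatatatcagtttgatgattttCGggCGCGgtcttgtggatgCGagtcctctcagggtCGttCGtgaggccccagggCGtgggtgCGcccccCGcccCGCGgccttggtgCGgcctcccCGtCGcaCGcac
PSMB5, chr14:23035221-23035370, minus strand: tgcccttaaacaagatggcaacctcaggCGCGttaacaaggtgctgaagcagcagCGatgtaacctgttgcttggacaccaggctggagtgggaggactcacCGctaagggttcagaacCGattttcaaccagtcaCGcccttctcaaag
PAX8, chr2:113278922-113279071, minus strand: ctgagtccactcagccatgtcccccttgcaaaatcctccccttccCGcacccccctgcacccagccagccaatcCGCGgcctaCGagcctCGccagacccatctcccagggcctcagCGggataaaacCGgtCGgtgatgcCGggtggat
SOX1, chr13:112066999-112067148, plus strand: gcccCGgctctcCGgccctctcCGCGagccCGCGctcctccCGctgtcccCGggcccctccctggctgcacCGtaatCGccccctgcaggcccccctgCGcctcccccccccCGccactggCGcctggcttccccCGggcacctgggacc
OR10A2, chr11:6862907-6863056, plus strand: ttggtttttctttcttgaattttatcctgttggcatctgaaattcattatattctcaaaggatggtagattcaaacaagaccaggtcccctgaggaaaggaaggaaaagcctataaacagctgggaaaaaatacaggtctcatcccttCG
IFNA1, chr9:21440289-21440438, plus strand: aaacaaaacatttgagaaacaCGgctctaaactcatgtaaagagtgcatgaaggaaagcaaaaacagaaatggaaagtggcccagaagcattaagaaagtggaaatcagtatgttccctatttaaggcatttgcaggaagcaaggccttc
The stretch before EIF3B holds 15 CG, that before SOX1 14, that before PAX8 9 and that before PSMB5 6. The stretches before OR10A2 and IFNA1 hold 1 each. SOX1 was thus nearly as rich in CG as EIF3B and had no peak.

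Peak height is the authors' whole-number signal at a peak's summit, and pairs of heights are given below in the order replicate 1, replicate 2. Heights ranged from 9 to 1283 in replicate 1, with a median of 24, and from 10 to 1138 in replicate 2, with a median of 26. The shared peaks made up 67.8% of the replicate 1 list, and 83278 replicate 2 peaks, 75.8% of its 109801, met a replicate 1 peak. Read depth is unknown, so heights were set side by side and not compared as amounts of the mark.

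Agreement between the libraries followed height. Among replicate 1 peaks, 25.9% of the lowest decile were shared and 98.6% of the highest decile, and in replicate 2 the shares were 43.2% and 98.9%. Shared peaks had median heights of 29 and 30, and unshared peaks 17 and 19. Shared peaks were also wider, with a median of 771 bp in replicate 1 against 459 bp for unshared ones. Over the 83846 shared peaks, Spearman's rho between the libraries was 0.909 for height and 0.609 for width. Within a library, rho between height and width was 0.481 and 0.518. Of the shared peaks, 99.2% had heights within 2-fold of each other in the 2 libraries. Rank by height was thus more alike between libraries than width was.

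The mark was first set beside the genes that define the cell. A gene was called where each library had a peak within 1 kb of its start, and 8376 of 15101 protein-coding genes with a known start were called (55.5%). For 3872 further genes, among them all 707 of chromosome 8, the reference gave no strand. For these a peak within 1 kb of either end was counted, and 52.7% of them were called. PAX8, a transcription factor of the kidney lineage and a marker of renal carcinoma, carried a start peak of height 140 and 119. Its span of 62925 bp on chromosome 2 held 11 shared peaks that covered 25.6% of it, with heights of 44 to 140 in replicate 1 and 39 to 119 in replicate 2. PAX2, its paralogue in the same lineage, had no peak at its start in either library but 14 shared peaks in its span, the highest with heights of 117 and 131. LHX1, an early nephron factor, had an end peak in replicate 2 only, at a height of 24. Its span held 3 shared peaks, with heights of 18 to 23 in each library, which covered 20.6% of it. CDH16, a kidney-specific cadherin, had an end peak of 32 and 38 and none in its span.

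Markers of clear cell carcinoma divided. CAV1, the caveolar coat protein, had a start peak of 183 and 150, and VIM, the mesenchymal intermediate filament, one of 64 and 104. NNMT, a methyltransferase highly expressed in this tumour type, had an end peak of 25 and 20 and 5 shared peaks in its span, the highest at 93 and 90. The NNMT end peak of replicate 1 lay at the upper end of the span, and the gene has no strand in the reference. CA9, the carbonic anhydrase used to diagnose clear cell carcinoma, had no peak at its start or in its span in either library. Of the markers of other cell types, 3 of 14 blood and endothelial genes with a known start were called. CSF1R, the receptor for macrophage colony-stimulating factor, stood at 140 and 142. At a height of 20 or more the share of this list was 7.14%, against 51.1% of all genes. TIE1, an endothelial receptor, stood at 15 and 17, and CD14, a monocyte co-receptor, at 18 and 13, below the median height of their libraries. CD3D, CD8A, EMCN, ERG and PTPRC had no peak at the start, although 2 shared peaks lay in the span of ERG. The neuronal list was called in 5 of 18 genes, or 16.7% at a height of 20 or more, and the fibroblast and podocyte list in 3 of 6. RGS5, a pericyte gene and the highest of that last list at 96 and 102, shares its peak with NUF2, a kinetochore gene. The part of other cells in these peaks was not tested.

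By place, most shared peaks lay inside genes. Of the 83846, 10545 (12.6%, 95% Clopper-Pearson interval 12.4 to 12.8) met a start window, or an end window of a gene without strand, 51482 (61.4%, 61.1 to 61.7) lay inside a gene span outside such windows, and 21819 (26.0%, 25.7 to 26.3) lay between genes. These intervals cover counting error only. Each class held a different share of the 2804 Mb between the first and last shared peaks of the chromosomes. Start windows took 1.52% of it, the rest of the gene spans 42.2% and the remainder 56.3%. Stretches in which reads cannot be placed were not taken out of this length. All shared peaks together covered 75.02 Mb, or 2.68%. The full lists of replicates 1 and 2 placed 9.56% and 10.6% of their peaks at starts and 63.4% of each inside genes.

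Start peaks were the highest and widest class, although a wider peak also meets a window more readily. Their median heights were 47 and 55, against 28 and 29 inside genes and 26 and 27 between genes. Their median widths were 972 and 1146 bp, against 740.5 and 734 bp inside genes and 768 and 770 bp between genes. Across deciles of the shared peaks by height rank, the share at starts rose from 3.36% in the lowest to 38.6% in the highest. The share inside genes was 54.3% in the lowest decile, 70.9% in the fifth and 35.1% in the highest. The share between genes fell from 42.3% to 20.4% in the seventh decile and stood at 26.3% in the highest. Among the 1000 highest peaks, 436 lay at starts, 336 between genes and 228 inside genes. The 1000 widest peaks had another make-up, with 597 inside genes, 220 between genes and 183 at starts. The share inside genes among these was close to the 61.4% of all shared peaks. Across deciles by width in replicate 1, the share at starts rose from 7.32% to 21.4%. The share inside genes fell from 66.7% to 54.5%. Starts thus took a larger share with both height and width, more so with height.

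**Figure D1:**
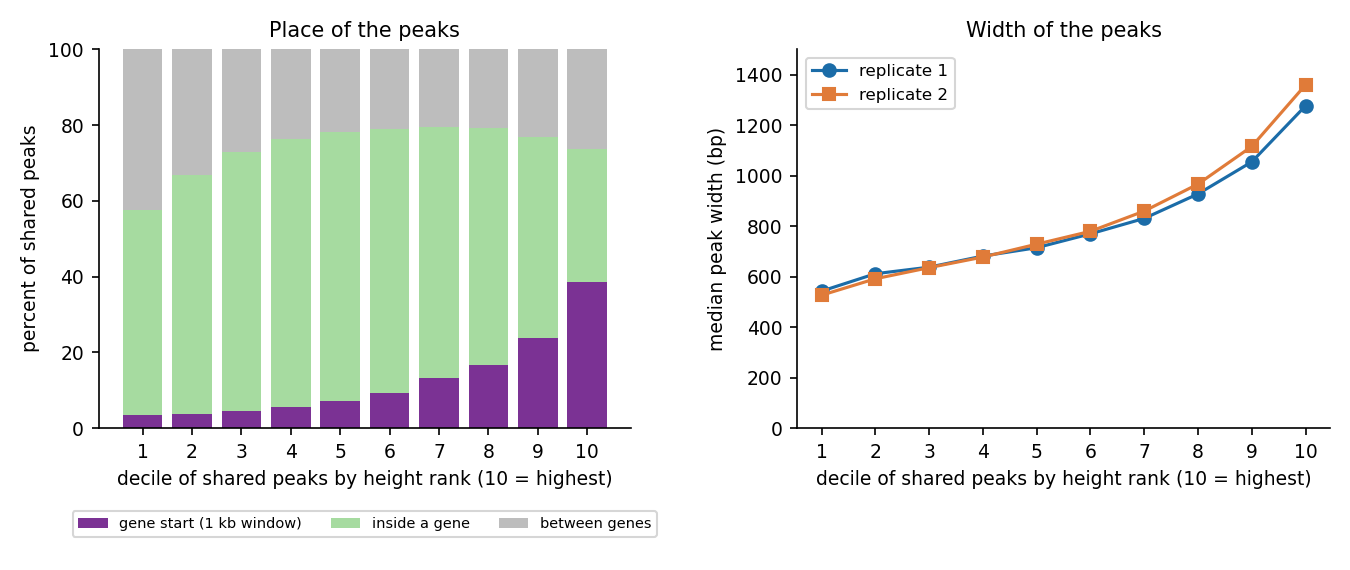
Left, percent of shared peaks at gene starts, inside genes and between genes in each decile by height rank (10 is the highest). Right, median peak width in bp per decile in each library. The share at starts goes from 3.36% to 38.6%, and the median width from 542 to 1276 bp in replicate 1 and from 526 to 1359 bp in replicate 2.

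The 12 highest start peaks included several at genes of translation, trafficking and protein turnover, named here one by one with no list behind them. EIF3B on chromosome 7 led with a peak of 1038 bp and heights of 429 and 459. The EIF3B peak also met the span of SNX8, though not its start window. AFG1L, a mitochondrial ATPase gene, followed with 407 and 348. The shared promoter of AIMP1, a scaffold of the tRNA synthetase complex, and TBCK stood at 389 and 330. RPL7, encoding a large ribosomal subunit protein, shared a peak of 334 and 368 with RDH10 on chromosome 8. TM9SF4, a membrane trafficking gene, stood at 380 and 323, and COPG1, a coatomer subunit gene, at 355 and 325. COPS5, a signalosome subunit gene, reached 313 and 327, and 2 further ribosomal genes, RPL7L1 and RPL37, reached 344 and 341 and then 314 and 319. CCDC200, the divergent pair BTBD19 and DYNLT4, and FAM114A1 completed the 12 highest, with heights from 305 to 340 in the 2 libraries. The FAM114A1 peak also met the span of TLR6. RPL7, RDH10 and COPS5 lie on chromosome 8, whose genes have no strand in the reference, and RPL37 has none either. Peaks of these genes were placed by either end. For comparison, called genes with a known start had median heights of 54 and 61. All 12 thus stood more than 4-fold above the median of their library.

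Start peaks were often not of 1 gene alone. Of the 8376 called genes, 2083 (24.9%) shared their peak with the start of another gene. A further 1332 genes had a start peak in 1 library only, and 5393 (35.7%) had none in either. Replicates 1 and 2 alone had start peaks at 59.3% and 60.5% of genes. Of the 5393 genes without one, 2154 (39.9%) still had a peak somewhere in the span in both libraries. No peak was found at the start or in the span of 2783 genes (18.4%) in either library. Over all 18973 protein-coding genes, 13874 (73.1%) had a peak somewhere in the span in both libraries.

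Promoter sequence, which played no part in the choice of peaks, differed between called and uncalled genes. Over the 300 bases from 250 before to 50 after the start, called genes had a median of 26 CG, and genes with no start peak 8. The relation was not a steady rise. By deciles of CG number, the share called was 10.7% in the lowest decile, where the median gene has 1 CG, and rose to 75.9% in the sixth, with 24 CG. It then fell to 71.8% in the eighth, 65.2% in the ninth and 57.5% in the highest, with 44 CG. Median height of the called peaks took the same shape, from 32 and 32 in the lowest decile to 66 and 72 in the sixth and 39 and 47 in the highest. PSMB5, at 219 and 204, has 10 CG in these 300 bases and EIF3B 25, while SOX1, with none called, has 37. The mark was thus most frequent and highest at promoters of intermediate CG number.

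**Figure D2:**
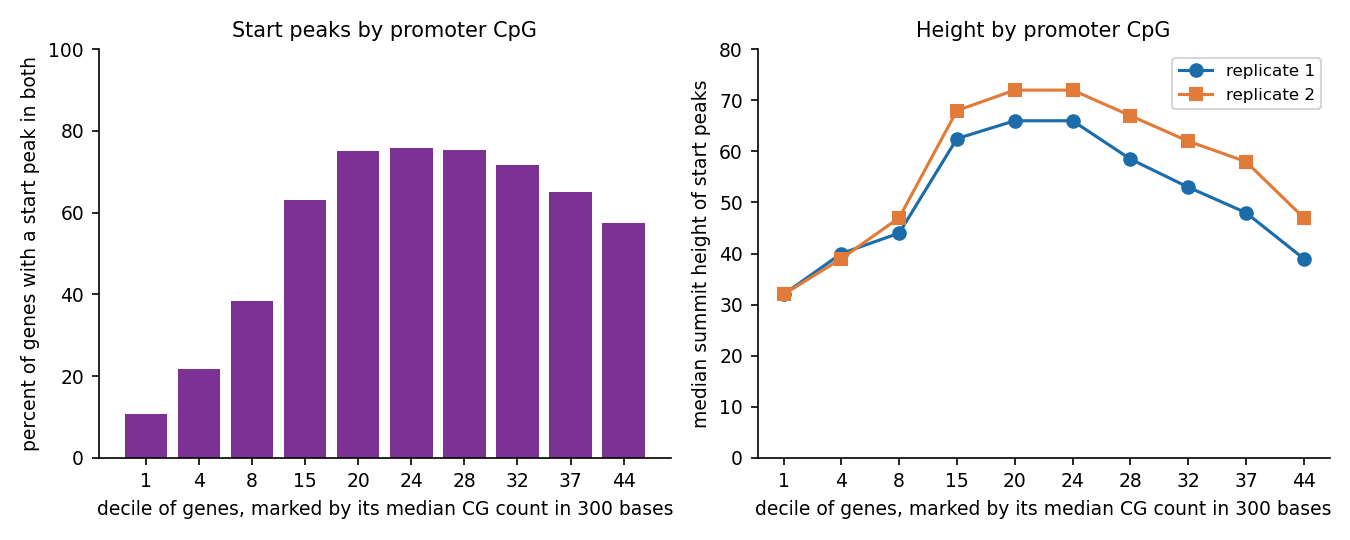
Percent of genes with a start peak in both libraries (left) and median summit height of those peaks in each library (right), by decile of genes ordered by the number of CG in 300 promoter bases; the axis gives each decile's median CG number. Both measures are lowest at 1 CG and peak near 20 to 24 CG.

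Short motifs were counted on both strands of the same 300 bases. The ETS-type motif CCGGAAG occurred in 14.4% of all promoters, in 21.9% of called promoters and in 3.93% of those with no start peak. The GC box GGGCGG occurred in 58.9% of all, 69.7% of called and 40.9% of unmarked promoters. The palindromic NRF1 motif was found in 1.77%, 2.64% and 0.556%. The motif CACGTG, bound by E-box factors, was found in 8.77%, 10.8% and 5.64%, and it contains the hypoxia element core ACGTG, which was found in 23.6%, 27.9% and 17.4%. The TATA motif TATAAA went the other way, with 9.71% of all, 5.38% of called and 17.1% of unmarked promoters. TGANTCA, the AP-1 motif, occurred in 5.70%, 4.73% and 7.57%. The CCAAT motif was nearly even, at 36.0%, 37.1% and 35.5%. The first 5 of these motifs hold CG, and their shares were not separated from that of CG.

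Summits of the called start peaks lay on both sides of the start. The call uses a window symmetric about the start, so a median distance near 0 is partly set by it. Among the 8376 called genes, the summit's median distance from the start was 4.5 bp downstream in replicate 1 and 23 bp downstream in replicate 2. With upstream positions written as negative, the middle 50% lay between -273 and 356 bp in replicate 1 and between -236 and 291 bp in replicate 2. Within 100 bp of the start lay 20.2% and 22.6% of summits. Shared-peak summits around gene starts, a wider set than those of the called peaks, were also counted in bins of 100 bp. In both libraries the fullest bin was the first after the start, with 910 and 1020 of these summits. EIF3B had its summit at chr7:2354329, before the start of the gene. Summits of PAX8 lay at -92 and -94 bp, those of CAV1 at -126 and -128 bp, and those of VIM at 144 and 547 bp. Those of EP300, at -938 and -937 bp, lay far upstream and agreed to 1 bp.

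Genes with a start peak also carried more of the mark along the body. Among genes of 10 kb or more with a known start, the 6592 called genes had a median of 6.88% of the span covered by shared peaks and 9.13 shared peaks per 100 kb. The 4522 other genes had 0.929% and 1.21. These spans include the start region, on which the call rests. No shared peak lay in the span of 1.5% of called and 42.6% of other genes. Pooled over all genes of this length, 4.20% of the span was covered.

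Along the called genes, coverage fell from 32.6% and 36.5% in the first of 20 equal bins of the body to 5.31% and 5.27% in the fourth. It then climbed towards the end of the gene, to 9.02% and 8.46% in the nineteenth, stood at 8.14% and 7.72% in the last, and reached 10.6% and 10.4% in the 2 kb just after the end. Genes without a call showed a shallower course, from 2.31% in the first bin to 5.0% in the nineteenth and 5.73% just after the end in replicate 1. Just upstream of called genes, 2 to 4 kb before the start, coverage was 1.97% in replicate 1, below the 5.15% found 6 to 8 kb before it. The 3′ rise lay outside the gene's own start window, on which its call rests. The part of start peaks of neighbouring genes in this rise was not tested.

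**Figure D3:**
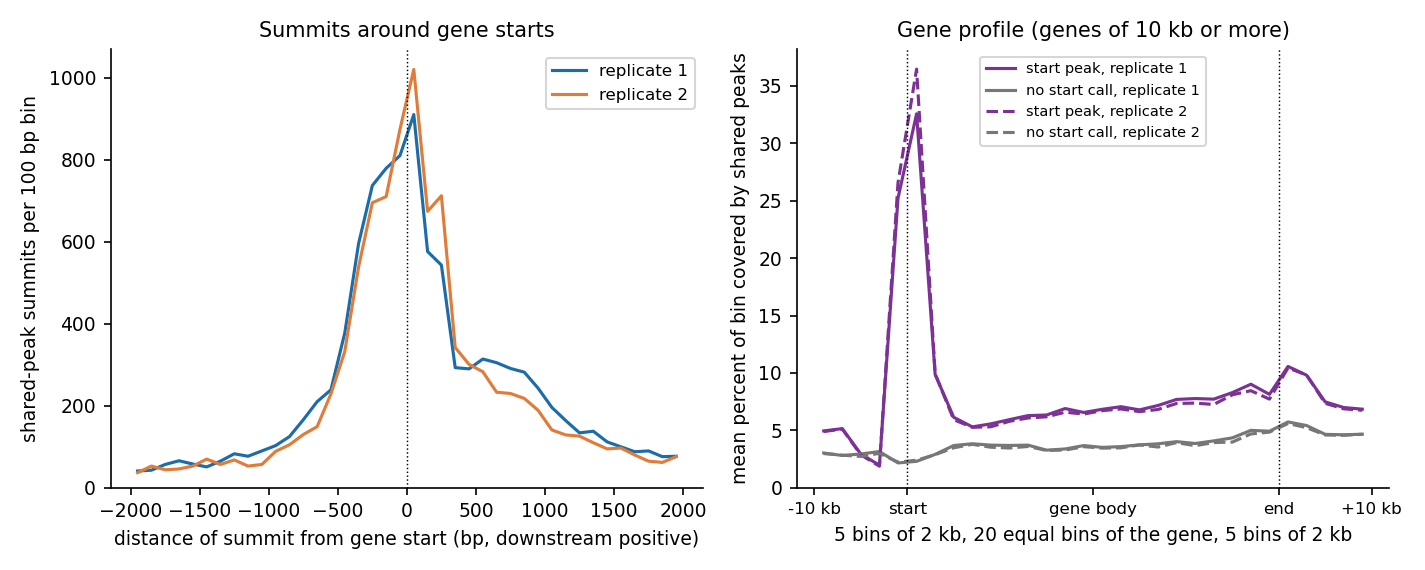
Left, shared-peak summits per 100 bp bin around the starts of genes, per library; both curves are highest in the first bin after the start (910 and 1020 summits). Right, mean percent of each bin covered by shared peaks for genes of 10 kb or more with a start peak (n = 6592) and without a call (n = 4522), over 5 bins of 2 kb, 20 equal bins of the gene and 5 bins of 2 kb; coverage of called genes is lowest in the body at bin 4, climbs to bin 19 and is lower again in bin 20.

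Gene length changed the picture of start and body. By deciles of length, the share called was 36.4% among the shortest genes, 65.0% in the seventh decile, with a median length of 45.6 kb, and 47.5% among the longest. Of the 25 longest genes, 22 were not called, and they held a median of 1 shared peak, or 0.0730 per 100 kb against 6.74 over all 13739 genes of 10 kb or more. Several are neuronal adhesion or synapse genes. CNTNAP2, of 2304198 bp, and ROBO2, of 1743290 bp, had no peak in either library. RBFOX1, a neuronal splicing factor gene of 2473620 bp, held 4 shared peaks. PTPRD, a receptor phosphatase gene of 2298757 bp, stood out among them with 26. DAB1, called at 118 and 176, shares its start peak with OMA1.

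Other long genes were densely marked. KCNMA1, which encodes the large-conductance calcium-activated potassium channel, held the most shared peaks of any gene, 87 over 768207 bp, and its start peak stood at 58 and 56. AGAP1, an Arf GTPase-activating protein gene, held 78 over 637751 bp, and MAD1L1, a spindle checkpoint gene, held 78 over 417151 bp, or 21.9% of its span. VPS13B held 72, FRMD4A and PTPRM 69 each, and PARD3, a cell polarity gene, and the recombination gene RAD51B 67 each. PTPRM and RAD51B had these peaks without a start peak in either library. The largest covered shares belonged to compact genes. DGAT1, the acyltransferase that completes triglyceride synthesis, was covered over 53.9% of its 12269 bp by 3 shared peaks, and its end peak of 74 and 77 is also one of HSF1 and LOC124902050. GSTZ1, whose start peak is also that of POMT2, was covered over 50.9%, GRK6 over 45.7%, XRCC3 over 43.9%, ARFGAP2 over 43.0% and the corepressor gene CTBP1 over 42.0%. NUTM2G and NUTM2D, at 52.1% and 48.5%, belong to a family of near-identical copies, among which reads may be shared.

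The highest peaks of all lay outside gene starts. Inside SERINC2, a serine incorporator gene, a narrow peak of 438 bp at chr1:31431748-31432185 stood at 1283 and 1090. A peak of 1122 bp inside NCAPG2, a condensin subunit gene, stood at 813 and 737. C1QTNF3, which encodes a secreted adipokine-like protein, held 3 of the 10 highest peaks inside genes between chr5:34178685 and chr5:34193500, at 765 and 703, 535 and 496, and 419 and 443. Peaks inside SMYD3, RHEX and the kinase gene SRC stood at 448 and 402, 366 and 349, and 346 and 363. DUX4 and ANXA8L1, at 375 and 335 and at 347 and 333, have close copies elsewhere. Between genes, the highest peak lay at chr5:10106-11792, near the end of the chromosome, at 1267 and 1138. The next were chr1:629366-629996 at 608 and 684, chr17:43245148-43247000 at 616 and 682, and chr4:1046132-1046847 at 647 and 644. Regions of recurrent artefact signal were not filtered, and the part of repeated sequence in these heights was not tested.

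The 8 widest peaks, ranked by their width in replicate 1, were not the highest. A peak of 5593 bp inside SH3GLB2 stood at 65 and 72, and 1874 bp was its width in replicate 2. PTPN23, a phosphatase gene, held one of 5302 bp against 1893 bp in replicate 2. A peak at the start of SPNS2, a sphingosine phosphate transporter gene, measured 5230 bp, and 3613 bp in replicate 2. One at an end of PLEC, the plectin gene on chromosome 8, measured 5067 bp, and 3377 bp in replicate 2. A peak 20171 bp from KRT80 was 5031 bp wide in replicate 1 and 5148 bp in replicate 2, with heights of 383 and 381. Another, 23302 bp from DNAH5, was 4680 and 4784 bp wide. Of the 8 widest, another intergenic peak measured 4575 and 4546 bp, and one inside the deacetylase gene HDAC4 4355 and 2623 bp. Since the ranking used replicate 1, narrower peaks in replicate 2 are given as a description.

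Gene families were read against the 55.5% of all genes. Families of basic machinery stood well above it. All 16 cytosolic aminoacyl-tRNA synthetase genes with a known start were called, with heights of 42 to 219 and 55 to 233. FARSB, a phenylalanyl-tRNA synthetase subunit gene, led with 219 and 233, and TARS1 followed with 208 and 196. Of 21 nucleoporin genes 20 were called, led by NUP155 at 249 and 263 and NUP205 at 238 and 212, and NUP210 was the one without a start peak. Of 61 cytosolic ribosomal protein genes with a known start 56 were called, led by RPL19 at 169 and 199. RPL10L, a testis-expressed copy of RPL10, was among the 3 with none in either library. Of 18 more ribosomal protein genes without strand 16 had an end peak in both libraries. RPL7 and RPL37, whose higher peaks are named above, are among these. Of 33 proteasome genes 30 were called. PSMB5 stood at 219 and 204 and PSMA1 at 174 and 183, while the testis-specific subunit gene PSMA8 had none. Mitochondrial ribosomal proteins were called in 62 of 69 genes, led by MRPS7 at 211 and 213, a peak it shares with GGA3. Subunits of respiratory complex I were called in 26 of 29. RPL6 and RPS9, MRPL34, MRPL41, MRPS34 and MRPS6, and NDUFA5 and NDUFS7, which are not tissue-restricted copies, also had no start peak.

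**Figure D4:**
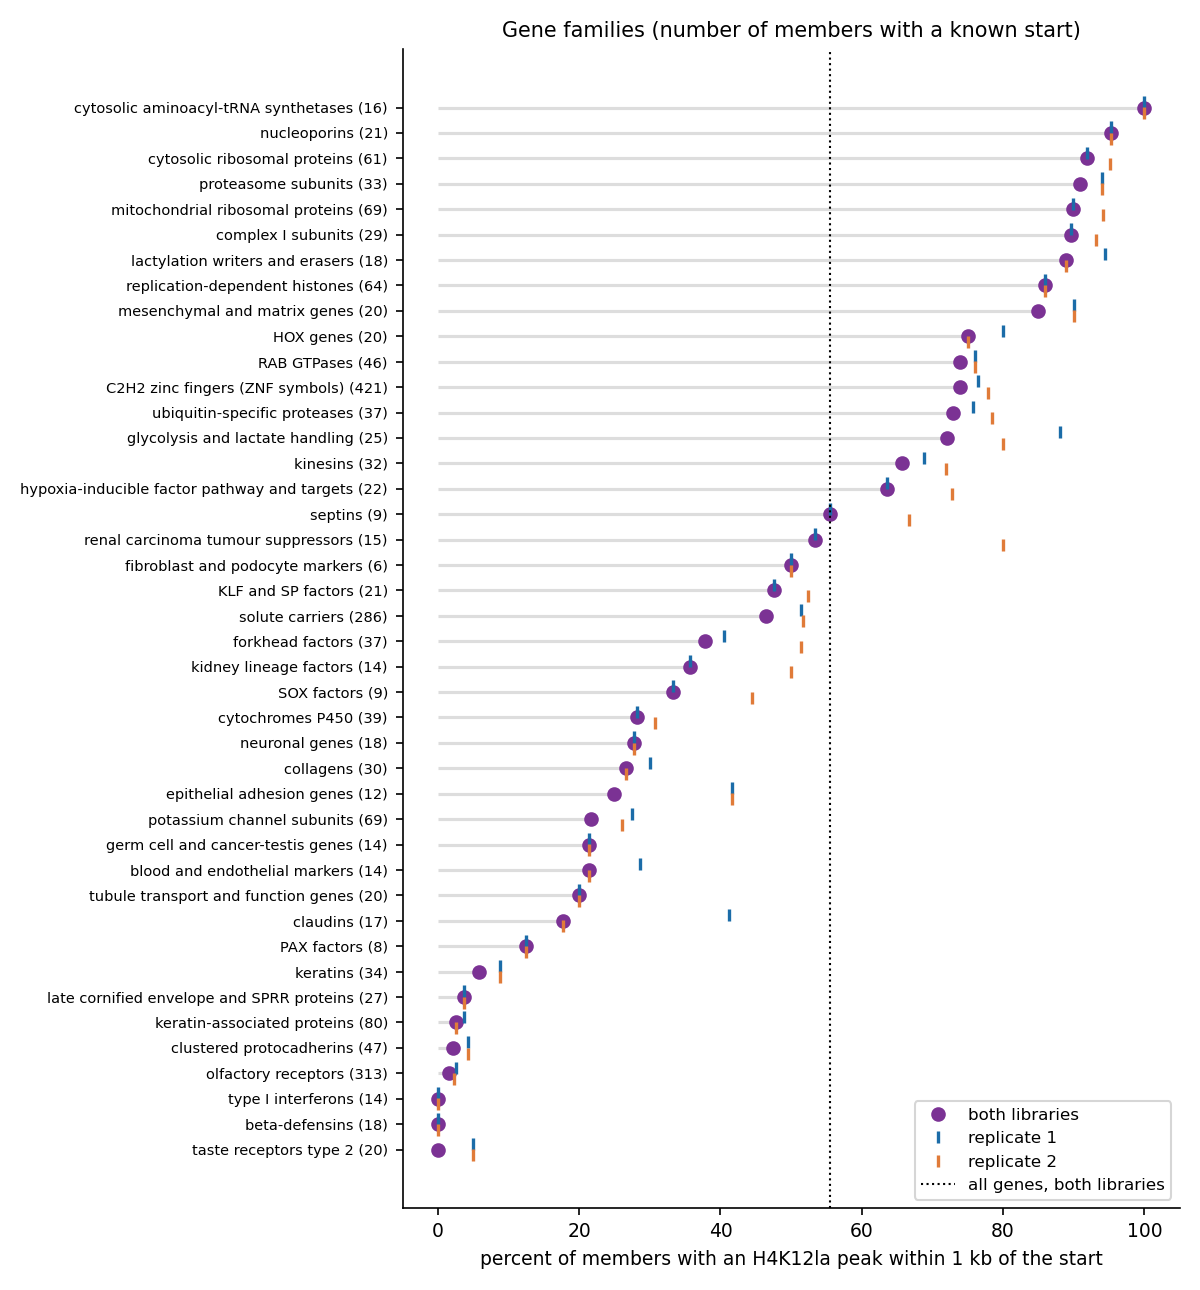
Percent of the members of each gene list, among those with a known start (number in brackets), that had a peak within 1 kb of the start in both libraries (circles) and in each library (ticks, replicate 1 above and replicate 2 below). The dotted line is the share of all genes, 55.5%; lists run from 100% for cytosolic aminoacyl-tRNA synthetases to 0% for taste receptors, beta-defensins and interferons.

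Clustered families differed from each other. Of 64 replication-dependent histone genes 55 were called, 43 of 50 on chromosome 6 and 11 of 13 on chromosome 1, at median heights of 43 and 42. The divergent pair H2AC11 and H2BC11 shared the highest peak, 123 and 132. H1-6, the testis H1 variant, and H1-1 had none. These genes have a median of 11 CG in the 300 promoter bases, below the 22 of all genes. Zinc finger genes named ZNF were called in 311 of 421, and the 216 on chromosome 19, where many lie in tandem arrays, were called in 161 against 150 of 205 elsewhere. ZNF131 stood highest at 276 and 282. Of 20 HOX genes, which set position along the body axis, 15 were called. HOXC4 and HOXC5 shared a peak of 197 and 231 with HOXC6, HOXA6 stood at 156 and 138, and HOXD12 and HOXD13 had none. The HOX share depended on placement. While 75% met the 1 kb windows, 30% had a summit in the window in both libraries, against 49.9% of all genes. With windows of 2500 bp 95% were called, against 62.6% of all genes. Clustered protocadherins, neuronal adhesion genes in 1 tandem array, were called in 1 of 47, and that was PCDHGC3 at 43 and 38.

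Genes of lactate and lactylation were next. Of 18 writers, erasers and acyl suppliers with a known start 16 were called, at median heights of 49.5 and 65.5. AARS1 stood at 169 and 173, KAT5, an acetyltransferase gene, at 153 and 150, the deacetylase gene HDAC2 at 139 and 155 and SUCLG2, encoding a subunit of succinyl-CoA synthetase, at 162 and 133. EP300 stood at 102 and 115, and KAT2A had no start peak. Of 25 glycolysis and lactate genes 18 were called, and replicates 1 and 2 alone had peaks at 22 and 20. With windows of 500 bp the share was 48%, against 49.7% of all genes. PFKM, the muscle phosphofructokinase gene, led with 163 and 182, but it shares its peak with SENP1. ALDOA stood at 90 and 110, LDHB at 83 and 83 and LDHA, the lactate-forming dehydrogenase gene, at 52 and 63. SLC16A3, the lactate exporter gene, had a start peak of 21 in replicate 1 only, yet the peak at the lower end of its span, chr17:82216578-82219217, stood at 154 and 134. SLC16A3 lies on the plus strand, so this is the upstream end of its span. The start used for the call, chr17:82228435, lies inside the span, and only 1 start per gene was used. SLC16A7, another monocarboxylate transporter gene, had no start peak.

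In the hypoxia pathway 14 of 22 genes (63.6%) were called, at median heights of 49 and 54. The share was 40.9% with windows of 500 bp and 31.8% by summit, below the 49.7% and 49.9% of all genes at those settings, so this list was above the share of all genes only in part of the settings. HIF1A, the subunit that 786-O cells are described as lacking, had a start peak of 33 and 51. EPAS1, which encodes HIF-2 alpha, had one of 27 and 38 and 9 shared peaks in its span. VHL had an end peak of 30 and 94, a pair more than 3-fold apart. Of the target genes, VEGFA had an end peak of 66 and 64, CCND1, the cyclin D1 gene, one of 22 and 33, and ANGPTL4 a start peak of 101 and 56. In replicate 1 the VEGFA peak lay at the lower end of its span and the CCND1 peak at the upper end. The reference gives neither VEGFA nor CCND1 a strand, so these end peaks need not be at like ends of the genes. P4HA1 stood at 68 and 87, TGFA at 57 and 90 and KDM3A at 70 and 55. BNIP3, CXCR4 and EGLN1 had no start peak, although 3 and 7 shared peaks lay in the spans of BNIP3 and EGLN1. Of renal tumour suppressors 8 of 15 were called, and replicate 2 alone had peaks at 12, with FLCN at 156 and 184 and the remodeller gene PBRM1 at 87 and 84. CDKN2A and CDKN2B had no peak at the start or in the span in either library, and their copy number in the line was not examined.

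Of 20 mesenchymal and matrix genes 17 were called, with SPARC at 132 and 132, the receptor gene AXL at 124 and 132, and ZEB1, a repressor of epithelial genes, at 103 and 131. Of 12 epithelial adhesion genes 3 were called, KRT8 at 94 and 94, ELF3 at 57 and 48 and CLDN7 at 33 and 32. Each library alone had a start peak at 5 of the 12. Windows of 2500 bp gave 50% of the epithelial and 95% of the mesenchymal list, against 62.6% of all genes. Windows of 500 bp gave 25% and 75%, against 49.7% of all genes. Placement by summit gave 16.7% and 65%, against 49.9% of all genes. CDH1, the E-cadherin gene, had no peak at either end and 2 shared peaks in its span, of 23 to 37 and 22 to 42. Of 14 kidney lineage factors 5 were called, among them GATA3 at 71 and 82, SIM1 at 54 and 87 and WT1 at 46 and 54. HNF4A, a proximal tubule factor, had none at its start. Of 20 tubule function genes 4 were called, or 10% by summit, against 49.9% of all genes by summit. MIOX, a proximal tubule oxygenase gene, stood at 96 and 85, GGT1 at 39 and 38, AQP3 at 22 and 22 and SLC26A4 at 17 and 16. CUBN, an endocytic receptor gene of the proximal tubule, had no start peak but 15 shared peaks in its span. Only counts within these lists are given, and no test of the difference was run.

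**Figure D5:**
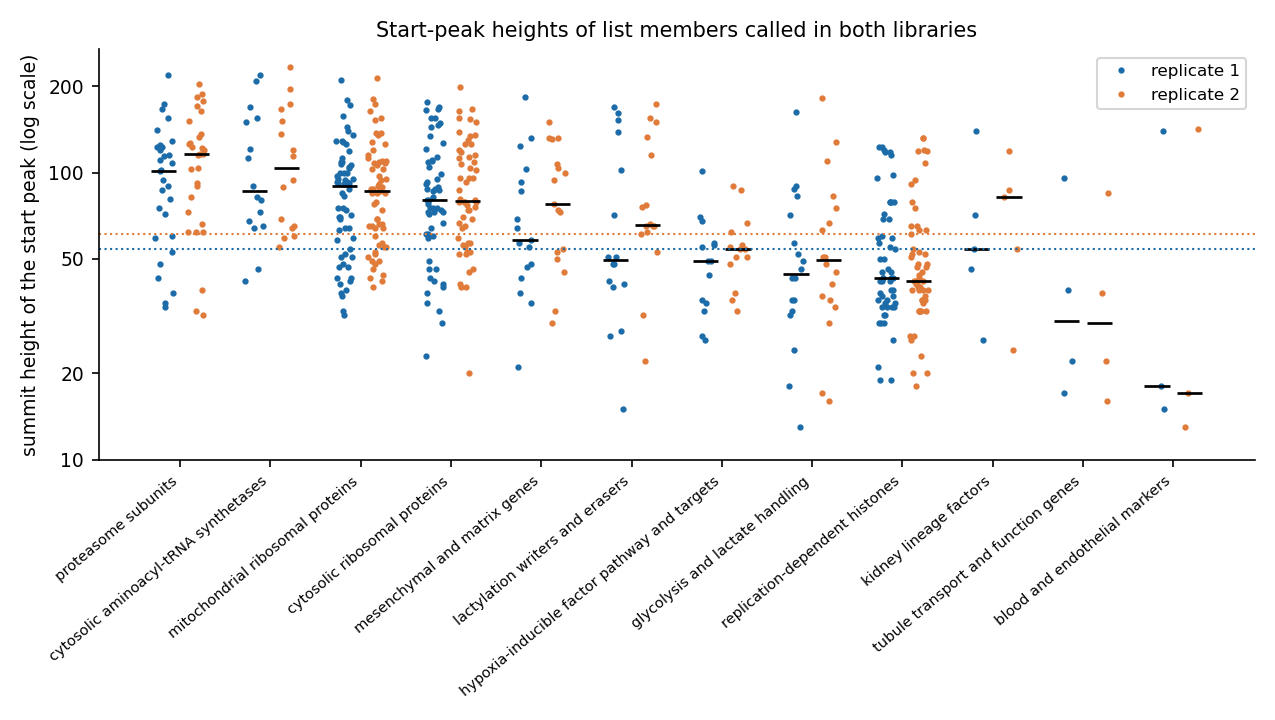
Summit height (log scale) of the start peak in each library for the members of 12 lists called in both libraries; each point is 1 gene and black bars are medians. Dotted lines are the medians of all called starts, 54 in replicate 1 and 61 in replicate 2; proteasome subunits have medians of 101.5 and 116, and blood and endothelial markers 18 and 17.

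Families of sensory, barrier and defence genes had few start peaks. Of 313 olfactory receptor genes 5 were called, none above a height of 19 in replicate 1 or 22 in replicate 2. OR52W1 stood at 19 and 19. No call was made among 20 bitter taste receptor, 18 beta-defensin and 14 type I interferon genes. Copy number of these genes in the line was not examined. Keratin-associated proteins of hair were called in 2 of 80 genes and late cornified envelope and SPRR proteins in 1 of 27. Keratins were called in 2 of 34, KRT8 and KRT79, which shares its peak of 156 and 127 with KRT78. The keratin share was 20.6% with windows of 2500 bp and 0% by summit, against 62.6% and 49.9% of all genes. These promoters are poor in CG, with medians of 1 for olfactory receptors and 2 for keratins.

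CG number did not order the lists by itself. Forkhead factors, with a median of 27 CG, were called in 14 of 37 genes, led by FOXK1 at 178 and 178, and FOXP1, at 51 and 90, held 56 shared peaks. Collagens, with 23 CG, were called in 8 of 30, led by COL7A1 at 83 and 103. Germ cell and cancer-testis genes, with 25 CG, were called in 3 of 14. Mitochondrial ribosomal proteins, with 24 CG, were called in 62 of 69. SOX6, the highest of the SOX factors at 214 and 215, shares its peak with C11orf58. Solute carriers were called in 133 of 286, potassium channel subunits in 15 of 69, cytochromes P450 in 11 of 39 and claudins in 3 of 17. Replicate 1 alone had start peaks at 7 of the 17 claudins and replicate 2 at 3. Without replicate 2 the claudin share was thus 41.2%, against 59.3% of all genes. RAB GTPases, ubiquitin-specific proteases and kinesins, which traffic, deubiquitinate and move along microtubules, were called in 34 of 46, 27 of 37 and 21 of 32. Septins were called in 5 of 9 and KLF and SP factors in 10 of 21, close to the share of all genes.

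The landscape was uneven over chromosomes. Chromosome 22 held the most shared peaks per Mb, 54.0, and chromosome 13 the fewest, 14.8. Chromosome 19, which is rich in genes, held 46.5 and chromosome 18 20.6. Median heights were lowest on chromosome 13, at 22 and 23, and highest on chromosome 22, at 34 and 34. Neighbouring shared peaks were a median of 8845 bp apart. MYC on chromosome 8 had an end peak of 128 and 108.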

How the data were processed

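H4K12la was profiled by CUT&Tag in untreated 786-O cells (2 libraries, replicates as labelled). Per the submitters' processing notes, tools included fastp 0.19.6 (read trimming), Bowtie2 (alignment) and deepTools, with GRCh38, also named hg38, as the build. What called the peaks, with which settings or control, is not given in the sources used here. For each library the authors deposited a list of peaks with position, length in bp, summit and a signal in whole numbers, taken as summit height. Read totals are not given, so depth and the precision it sets are unknown.

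Peaks of chromosomes 1 to 22 were intersected at 1 bp or more. Gene spans were those of RefSeq (GRCh38.p14), with 153 rows on scaffolds left out, and starts, strands and promoter bases from RefSeq promoters, which 15101 of 18973 genes matched. A peak met a start when it overlapped the 1 kb on either side. Only 1 start per matched gene was used, so a peak at any other start of that gene did not count. Height percentile is a peak's rank in its own list, averaged over both. Shares have 95% Clopper-Pearson intervals. The members, gene lists and measures were chosen with earlier results of these data known. Named genes are the 12 start, 10 inside and 6 intergenic peaks of highest mean percentile, the 8 widest peaks, the 8 genes most covered and the 8 with most peaks, up to 4 called and 4 unmarked members per list, and a fixed set of renal, hypoxia and lactylation genes, 1 of which is not reported here; any others were picked with their values in view. Alternatives varied overlap, height, list length, reference list, chromosomes, window and placement by summit, and left out each replicate. The code was checked on simulated peak lists. Software comprised numpy 2.4.6, scipy 1.17.1, pandas 2.3.3 and matplotlib 3.10.9 under Python 3.11.15.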

Additional observations from a re-analysis of the deposited data

Results flagged for a closer look

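Peaks that the report does not use include the highest signal of both lists. The mitochondrial genome, whose DNA is not packed on histones, carried 5 peaks in control replicate 1 with heights up to 6517, and 4 in replicate 2 with heights up to 7370. The highest peak elsewhere stood at 1283 and 1138. Sequences outside the assembled chromosomes, the mitochondrial genome included, held 3254 peaks in replicate 1 and 2773 in replicate 2. No control library without the H4K12la antibody is used here, and the cause was not tested.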

How the results depend on the processing

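No paired analysis was possible because the values come from 1 group and from no test. The 3 main counts stayed within 1.5 times: 61246 to 85794 shared peaks, 7502 to 9451 genes with a start peak and 12422 to 14592 with a peak in the span. A height of 20 or more gave 15.6% of peaks at starts, 61.8% inside, 22.6% between, a median width of 862 bp and 3.43% of spans covered. The highest 100000 peaks of each list gave 13.7%, 62.3% and 24.1%, and 811 bp. Overlap by 50% of each peak gave 60.5% inside, 798 bp and 3.44% covered. Windows of 500 and 2500 bp gave 10.54% and 15.5% at starts and 63.1% and 59.2% inside. Placement by summit gave 10.9% and 62.4%. Replicate 2 as reference gave 61.7% inside, and adding X and Y 61.1%. With 1 replicate left out, all peaks of the other (109801 and 123631) gave 9.56% to 10.6% at starts, 63.4% inside, 26.0% to 27.1% between, widths of 637 to 661 bp and 4.97% to 5.39% covered. In the 6 lists of basic machinery, at least 87.0% of members were called under every alternative, and in 7 lists of sensory, barrier and defence genes and protocadherins at most 6.38%; keratins, not among the 7, ranged from 0% to 20.6%. Of 42 lists, 14 moved by over 1.5 times under some alternative, and 6 crossed the share of all genes at the same setting: HOX (30% by summit), hypoxia (31.8% by summit), glycolysis (48%, 500 bp), septins (44.4%, 500 bp), renal tumour suppressors (80% without replicate 1) and fibroblast and podocyte markers (66.7%, 2500 bp). The cause was not tested. Unknown depth limits every low peak.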

Other observations

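Some long stretches held no peak of either library. Of 148248 gaps between neighbouring peaks of the 2 lists together, 234 exceeded 1 Mb, and the median gap was 5401 bp. Chromosome 13 held 6 of the 40 longest. One of them, chr13:80340467-87124047, holds SLITRK1 and SLITRK6, which encode neuronal membrane proteins, and another, chr13:66934495-72291046, holds KLHL1 and DACH1. On chromosome 6, chr6:90587601-95572216 holds the ephrin receptor gene EPHA7, and chr16:58747221-63617659 holds the cadherin gene CDH8. The stretch chr11:54304156-57278009 holds 52 protein-coding genes, of which 48 are olfactory receptors. Longer gaps on chromosomes 1, 9 and 16 hold no protein-coding gene. Whether reads could be placed in these gaps was not examined.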
